A study of Homo sapiens with 12 samples.

Results

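The genes of protein folding in the endoplasmic reticulum (ER) and of the unfolded protein response were examined in cells that had become resistant to venetoclax. They are 40 human genes chosen by name, and 40 of the 40 were found among the 60675 Ensembl identifiers of the count files through their GENCODE symbols. By role they are 9 chaperones and co-chaperones, 6 disulfide enzymes, 7 genes of ER-associated degradation, 3 stress sensors, 10 genes of the translocon, the TRAP complex and signal peptidase, and 5 genes of the COPII coat, retrieval and export receptors.

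SUDHL6 and SUDHL16 are human diffuse large B-cell lymphoma (DLBCL) lines that are sensitive to venetoclax (ABT-199), an inhibitor of the anti-apoptotic protein BCL2. The 4 groups held 3 RNA-sequencing libraries each, SUDHL6 parental (CE-7, CE-8 and CE-9), SUDHL6 resistant (CE-10, CE-11 and CE-12), SUDHL16 parental (CE-25, CE-26 and CE-27) and SUDHL16 resistant (CE-28, CE-29 and CE-30). The resistant cells were derived from the parental cells of the same line by long culture in rising venetoclax until they grew at 10 times the original IC50 or more, and they were kept in the drug. Each comparison therefore sets 1 resistant line against its 1 parental line. Cells of both kinds were put in fresh media for experiments, and whether venetoclax was present when RNA was taken is not stated. The library kit was NEBNext Ultra II for SUDHL6 and, for SUDHL16, an Illumina kit for stranded total RNA that removes ribosomal RNA (RiboZero Plus), and the sequencers were a HiSeq and a NovaSeq. The question was how the transcripts of ER folding and of its stress response differed between resistant and parental cells of each line.

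Proteins that are secreted or sit in membranes enter the ER through the SEC61 channel, lose their signal peptide, and are folded by chaperones and by enzymes that make disulfide bonds, while those that fail to fold are pulled back to the cytosol and degraded. When unfolded proteins build up, the sensors IRE1 (gene ERN1), ATF6 and PERK (gene EIF2AK3) start the unfolded protein response, in which IRE1 splices the XBP1 transcript to give an active transcription factor and ATF6 is cleaved to release another. In the B lineage this response is best known for the large ER of antibody-secreting plasma cells, which depends on XBP1.

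ATF6 and XBP1 are known to act through the ER stress response element in promoters, and the 250 bases before the transcription start were searched for it. The element was searched as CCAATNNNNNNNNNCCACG, and a second form, ERSE-II, as ATTGGNCCACG, both on either strand, and no member held matches of both forms. RefSeq promoters (GRCh38.p14) were at hand for 34 of the 40 genes. The first form was present in 7 of the 34 (20.6%) and in 0.0916% of the 27305 genes with a promoter, and ERSE-II was present in 3 of the 34 (8.82%) and in 0.0659% of those genes. A match describes letters and does not show that a factor binds. Of the 10 members with a match, the promoters of 3 are printed in full, and SSR4, described below, held neither form. They are on the strand of the gene from 5′ to 3′, ending at the base before the start. The fixed letters of each element are in capitals.
HSPA5 (chr9:125241344-125241593, minus strand): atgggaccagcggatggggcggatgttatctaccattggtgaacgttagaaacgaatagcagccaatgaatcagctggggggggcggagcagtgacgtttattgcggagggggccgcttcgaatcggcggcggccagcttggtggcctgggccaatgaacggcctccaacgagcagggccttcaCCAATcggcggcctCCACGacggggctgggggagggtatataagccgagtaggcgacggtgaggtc
HSP90B1 (chr12:103930160-103930409, plus strand): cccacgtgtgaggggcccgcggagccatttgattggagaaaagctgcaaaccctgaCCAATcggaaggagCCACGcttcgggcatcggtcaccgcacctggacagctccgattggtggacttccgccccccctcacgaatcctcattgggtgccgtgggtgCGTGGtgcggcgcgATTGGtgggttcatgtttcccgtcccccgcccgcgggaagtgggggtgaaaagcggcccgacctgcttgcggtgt
HERPUD1 (chr16:56931892-56932141, plus strand): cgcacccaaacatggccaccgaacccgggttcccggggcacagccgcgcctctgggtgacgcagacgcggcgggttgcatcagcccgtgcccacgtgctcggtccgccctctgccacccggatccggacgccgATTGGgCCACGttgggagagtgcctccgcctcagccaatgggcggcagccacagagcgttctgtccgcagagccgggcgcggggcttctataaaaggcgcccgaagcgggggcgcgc

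The HSP90B1 promoter held the first form at 2 sites, 1 in each orientation, HSPA5 held it at 1 site, and HERPUD1 held ERSE-II at 1 site. The elements of the other members with a match are shown alone, again on the strand of the gene, so that an element in the reverse orientation reads CGTGG first. The first form was at 1 genomic site in each of the 5 other genes, and ERSE-II was at 2 sites in HYOU1 and at 1 in SDF2L1.
CALR: CGTGGtcgaccatcATTGG
CANX: CCAATcttcacactCCACG
CRELD2: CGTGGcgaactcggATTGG
ERO1B: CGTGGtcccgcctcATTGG
PDIA6: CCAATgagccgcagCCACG
HYOU1: CGTGGtCCAAT
SDF2L1: CGTGGaCCAAT

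SUDHL6 libraries held total counts of 33992784 to 40885665, and those of SUDHL16 ranged from 4131927 to 22068221. The lowest total was that of the SUDHL16 parental library CE-26, which stood apart from the other 5 SUDHL16 libraries, with 55.4% of its counts on protein-coding genes against 84.3% to 90.2%, and with 0.319% on the 40 genes against 0.449% to 0.514%. Counts over the SUDHL16 members, and the fold changes of the genes described in detail, are therefore also given without it. The spread between libraries, as the biological coefficient of variation of edgeR, was 0.0516 in SUDHL6, 0.468 in SUDHL16 and 0.339 in SUDHL16 without CE-26, so that small changes could be called in SUDHL6 that could not be in SUDHL16. Markers of B cells were present, with 8 of 8 at 1 CPM or more in every library. Of the 4 fibroblast markers, DCN and LUM were at 11.7 to 25.5 CPM in the SUDHL16 parental libraries. In the resistant ones they were at 0 to 0.425 CPM. COL1A1 was at 0 in the parental libraries, and COL1A2 was at 0.331 CPM in CE-25, 9.99 in CE-26 and 0 in CE-27. CD3E of the T-cell list was at 1.16 to 4.48 CPM in parental and 10.8 to 13.4 CPM in resistant libraries. The other T-cell markers did not rise, with parental and resistant means of 2.30 and 0.367 CPM for CD3G, 0.574 and 0 for CD2, and 0.166 and 0 for CD3D. The part of these markers in the SUDHL16 results was not tested. The lists of T-cell, myeloid, fibroblast and epithelial markers, 4 genes each, summed to at most 2.21 CPM in any SUDHL6 library.

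Levels are in CPM, which are read counts scaled by library size and TMM factor, and each log2 fold change sets resistant against parental cells. Calls required an adjusted p (Benjamini-Hochberg, over all genes tested) below 0.05 together with a change of 1.5-fold or more. The p-values come from the quasi-likelihood test of edgeR with 3 libraries per group, and because the labels do not say that the libraries came from separate cultures, they measure the spread between these libraries, which may be technical.

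In SUDHL6 resistant cells the ER genes were lower as a group by small amounts, and 3 fell by close to 2-fold. The 3 were HSP90B1, the ER member of the HSP90 family, SSR4, the delta subunit of the TRAP complex that assists translocation, and DERL3, a derlin of ER-associated degradation. All 40 genes passed the filter on low counts and 3 of the 40 were called (7.50%), against 8.96% of the 16662 genes tested, so the share called in either direction was no higher than the background. The 3 calls were of lowered genes, for which the background was 4.65%, and 0 were raised (background 4.31%). At an adjusted p under 0.05 and any fold, 23 of the 40 were lower (57.5%) and 3 were higher (7.50%), against 19.7% and 17.7% of all genes tested. The members were expressed above most genes, with a median of 97.2 CPM against 14.3 CPM over all genes tested, and a small change is easier to detect at a high level. Among the 4266 genes at or above the lower quartile of the members (51.9 CPM), 32.5% were lower and 27.6% higher at any fold, and of the 30 members in that range 19 were lower and 3 were higher. The median log2 fold change of the 40 was −0.10, beside 0.00 over all genes tested, and 30 of the 40 were below 0. In a bulk sample, fewer cells of a kind and less RNA per cell cannot be told apart.

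**Figure D1:**
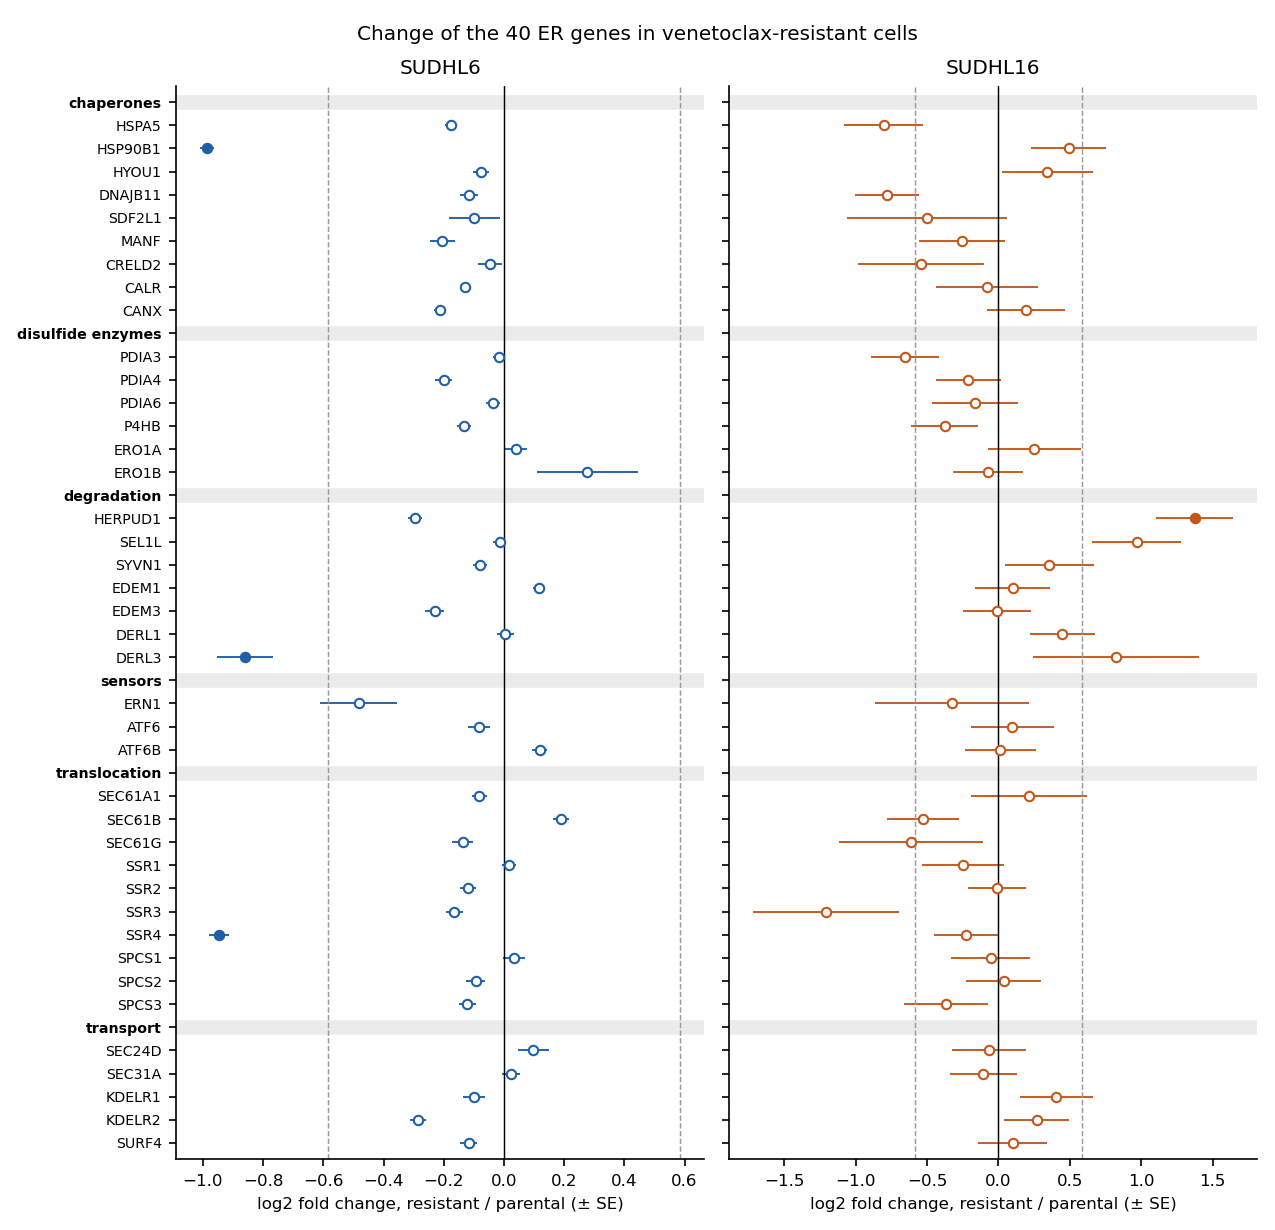
Log2 fold change (resistant against parental, x axis, with the standard error as a bar) of each of the 40 genes, grouped by role, in SUDHL6 (left) and SUDHL16 (right, with a wider x axis), where filled points are called genes and the dashed lines mark 1.5-fold. The 9 chaperones lie below 0 in SUDHL6 with HSP90B1 far from the rest, and HERPUD1 is the filled point in SUDHL16, where the bars are longer.

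HSP90B1 encodes the chaperone GRP94, which folds Toll-like receptors and integrins among others. Its gene lies on chromosome 12 (103930107 to 103953931, plus strand, 18 exons in the canonical transcript). It was at 287.6, 294.9 and 289.7 CPM in the SUDHL6 parental libraries and at 143.5, 147.0 and 150.2 CPM in the resistant ones. The groups did not overlap, and the libraries within each were close together. The log2 fold change was −0.99 (SE 0.0232, edgeR adjusted p = 1.56e-11). The 42 other tested protein-coding genes that start within 5 Mb had a median of −0.05, and the gene UQCC6, which overlaps HSP90B1 on the opposite strand, was at 12.2 CPM in parental cells and had a log2 fold change of −0.16 that did not pass (edgeR adjusted p = 0.166).

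The other chaperones of SUDHL6 changed little, although all 9 had a log2 fold change below 0 (median −0.13). At an adjusted p under 0.05, 7 of the 9 were lower (77.8%), against 19.7% of all genes tested and 32.5% of those at or above 51.9 CPM. HSPA5 encodes BiP, the main HSP70 chaperone of the ER, which also holds the sensors inactive. It was at 312.1, 304.1 and 305.4 CPM in parental libraries and at 268.5, 275.8 and 271.9 CPM in resistant ones, without overlap, a log2 fold change of −0.18 (SE 0.0201, edgeR adjusted p = 1.95e-05). The transcript of HSPA5 thus fell by 11.5% where that of HSP90B1 fell by 49.5%. CANX (calnexin) at −0.21, MANF, a secreted stress protein, at −0.20, CALR (calreticulin) at −0.13, DNAJB11, a co-chaperone of BiP, at −0.12 and HYOU1, which exchanges the nucleotide of BiP, at −0.08 passed in the same direction. SDF2L1 (−0.10) and CRELD2 (−0.05), both known as stress-induced ER proteins, did not pass, and their groups overlapped. The summed CPM of the 9 was 1933 ± 7.02 in parental and 1618 ± 9.65 in resistant libraries (SD, n = 3), a ratio of 0.837, the lowest of the 6 roles in this line.

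Of the disulfide enzymes in SUDHL6, 2 of 6 were lower at any fold (33.3%) and none was called. That share is close to the 32.5% of genes at or above 51.9 CPM that were lower, and 19.7% of all genes tested were. PDIA4 (−0.20) and P4HB (−0.13), both protein disulfide isomerases, were lower, while their relatives PDIA3 (−0.02) and PDIA6 (−0.04) did not pass. ERO1A and ERO1B, the oxidases that recharge these isomerases, were at 0.04 and 0.28 and did not pass (edgeR adjusted p = 0.463 and 0.226).

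ER-associated degradation in SUDHL6 held 1 called gene, DERL3, on chromosome 22 (23834503 to 23839128, minus strand, 7 exons). It was a low-level gene, at 12.1, 12.4 and 13.4 CPM in parental libraries and at 6.54, 6.59 and 7.85 CPM in resistant ones, on 263 to 547 counts per library. The groups did not overlap. The log2 fold change was −0.86 (SE 0.0923, edgeR adjusted p = 1.09e-05), with a median of −0.04 over 76 neighbours and −0.01 for SMARCB1, which overlaps it on the opposite strand. HERPUD1, a membrane protein that assembles the degradation complex and is a standard marker of ER stress, was at 162.2, 160.9 and 165.8 CPM in parental and at 134.1, 132.5 and 132.0 CPM in resistant libraries. It fell by 0.29 on the log2 scale (SE 0.0231, edgeR adjusted p = 6.50e-07), without overlap, less than the 1.5-fold limit. EDEM3 (−0.23) and SYVN1, the ubiquitin ligase HRD1 (−0.08), were lower as well. EDEM1, which like EDEM3 trims mannose from misfolded glycoproteins, was higher (0.12, edgeR adjusted p = 0.000502), and SEL1L (−0.01) and DERL1 (0.00), a derlin of the same complex, did not pass.

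The 3 sensors of SUDHL6 did not move together. ERN1 was at 5.73, 5.34 and 6.73 CPM in parental and at 3.73, 4.58 and 4.46 CPM in resistant libraries, on 150 to 274 counts, a log2 fold change of −0.48 (SE 0.127, edgeR adjusted p = 0.00956), below the fold limit. ATF6 was at 50.4, 50.7 and 47.5 CPM in parental libraries and at 47.4, 47.1 and 45.6 CPM in resistant ones, with groups that nearly touched (log2 fold change −0.08, edgeR adjusted p = 0.103). ATF6B, its homologue, was slightly higher, at 124.7, 123.0 and 123.4 CPM against 137.4, 132.4 and 133.1 CPM (log2 fold change 0.12, SE 0.0246, edgeR adjusted p = 0.00204). A count per gene shows neither the splicing of XBP1 nor the cleavage of ATF6, so the activity of the sensors was not measured.

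Among the 10 genes of entry into the ER in SUDHL6, 7 were lower at any fold (70.0%) and 1 was higher (10.0%). The shares were 19.7% and 17.7% of all genes tested, and 32.5% and 27.6% of those at or above 51.9 CPM. SSR4 lies on chromosome X (153793516 to 153798499, plus strand, 6 exons) and was at 89.1, 93.2 and 90.7 CPM in parental libraries and at 46.1, 49.2 and 46.4 CPM in resistant ones. Its groups were far apart, a log2 fold change of −0.95 (SE 0.0331, edgeR adjusted p = 4.56e-10). The other TRAP subunits did not share the size of that change, with SSR3 at −0.16, SSR2 at −0.12 and SSR1 at 0.02. The chromosomal neighbours of SSR4 did, since the 63 other tested genes that start within 5 Mb had a median of −0.69 and 52 of them were below 0. IDH3G, which overlaps SSR4 by 997 bases on the opposite strand, went from 90.3 ± 1.31 to 59.5 ± 1.29 CPM (SD, n = 3). Whether SSR4 changed on its own or with its region cannot be told apart here, and a shared read would be counted for either gene where counting did not use strand. In the SEC61 channel, SEC61A1 (−0.08) and SEC61G (−0.14) were lower and SEC61B was higher (0.19, edgeR adjusted p = 0.000108). The signal peptidase subunits SPCS3 (−0.12) and SPCS2 (−0.09) were lower and SPCS1 (0.03) did not pass.

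**Figure D2:**
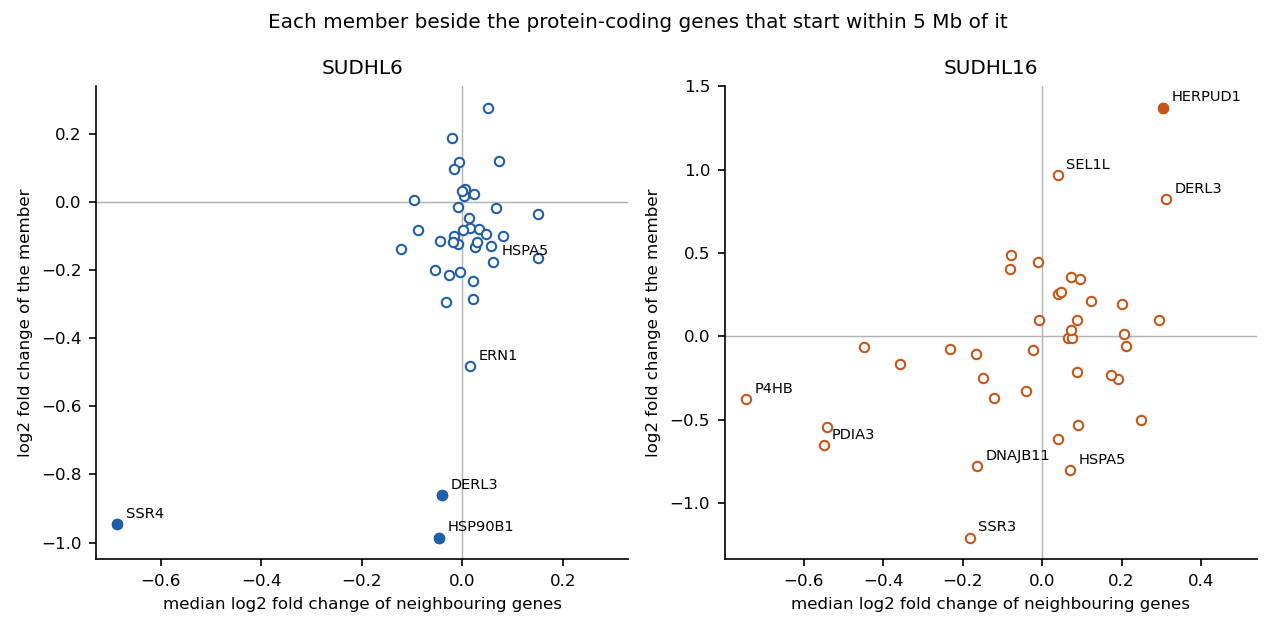
Log2 fold change of each of the 40 genes (y axis) against the median change (log2) among the other tested protein-coding genes that start within 5 Mb of it (x axis) in SUDHL6 (left) and SUDHL16 (right), with called genes filled. In SUDHL6, SSR4 lies at −0.69 on the x axis while HSP90B1 and DERL3 lie near 0, and in SUDHL16 several isomerases lie in regions that were lower.

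For transport out of the ER in SUDHL6, KDELR2, a receptor that returns escaped chaperones with a KDEL tail, was lower (−0.29, edgeR adjusted p = 2.76e-06), as was the cargo receptor SURF4 (−0.12). KDELR1 (−0.10) and the COPII coat genes SEC24D (0.10) and SEC31A (0.02) did not pass. Over the 40 genes, every SUDHL6 resistant library was below every parental one for 25 genes (62.5%, background 24.8% of genes tested) and above for 4 (10.0%, background 23.1%), and the groups of the remaining 11 overlapped. The summed CPM of the 40 was 5848 ± 3.15 in parental and 5352 ± 29.4 in resistant libraries (SD, n = 3), a ratio of 0.915.

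In SUDHL16 the pattern differed. HERPUD1 rose, and of the 40 genes tested it was the 1 called (2.50%), against 5.30% of the 15708 genes tested, 3.20% for raised and 2.10% for lowered genes, so that the count of calls was not above the background. The median log2 fold change of the 40 was −0.06 (−0.02 over all genes tested), and 17 were above and 23 below 0. Without CE-26 the median was −0.07 (0.05 over all genes tested), again with 17 above and 23 below 0, and HERPUD1 was again the 1 called gene, where 6.73% of genes were raised and 3.32% lowered. At an adjusted p under 0.05 and any fold, the count was also 1. At an unadjusted p under 0.05 it was 6 with all libraries (HSPA5, DNAJB11, PDIA3, HERPUD1, SEL1L and SSR3) and 9 without CE-26. The share of all genes at that unadjusted limit was not counted, so neither number can be set against a background.

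HERPUD1 lies on chromosome 16 (56932142 to 56944864, plus strand, 8 exons). It was at 53.3, 37.5 and 35.6 CPM in the SUDHL16 parental libraries and at 86.9, 132.9 and 109.0 CPM in the resistant ones. The groups did not overlap, and the lowest resistant library was above the highest parental one. The log2 fold change was 1.37 (SE 0.269, edgeR adjusted p = 0.0240), a 2.59-fold rise, and 1.31 (edgeR adjusted p = 0.0213) without CE-26. The median of its 34 neighbours was 0.30, and 0.10 without CE-26. The call was not firm, since HERPUD1 did not pass without CE-27 (1.27, edgeR adjusted p = 0.110), CE-28 (1.53, 0.0575), CE-29 (1.20, 0.120) or CE-30 (1.38, 0.0997). The size of the change stayed above 2-fold in each of these fits. Calls over all genes also fell in SUDHL16 when a library other than CE-26 was left out, from 833 to between 279 and 460. It was called in 9 of the 13 alternative fits, with DESeq2 at an adjusted p = 0.000189.

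Most of the other genes of ER-associated degradation leaned the same way in SUDHL16 without passing. In this role 6 of the 7, HERPUD1 among them, were above 0 (median 0.45, and 0.53 without CE-26), while 50.9% of all genes tested were below 0. The same 7 had a median of −0.08 in SUDHL6. SEL1L, the partner of the ligase HRD1, was at 115.1, 82.0 and 103.5 CPM in parental libraries and at 123.6, 238.0 and 227.5 CPM in resistant ones, so that the groups did not overlap although CE-28 was close to the parental range. Its log2 fold change was 0.97 (SE 0.312, edgeR adjusted p = 0.131, and 0.85 without CE-26), and it was called by DESeq2, by limma voom with quality weights and in a fit of all 12 libraries. DERL3 was at 2.48, 7.23 and 2.79 CPM in parental and at 8.77, 8.05 and 4.38 CPM in resistant libraries, on 21 to 171 counts, and the groups overlapped through CE-26. Its log2 fold change was 0.82 (edgeR adjusted p = 0.504) and, without CE-26, 1.43 (edgeR adjusted p = 0.0970). DERL1 (0.45, SE 0.228), SYVN1 (0.36, SE 0.311), EDEM1 (0.10, SE 0.261) and EDEM3 (−0.01, SE 0.238) did not pass. Without CE-26 these genes were at 0.53, 0.19, 0.04 and −0.10. The summed CPM of the 7 was 771.4, 602.0 and 713.0 in parental and 766.6, 1021 and 1053 in resistant libraries, which overlap.

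Chaperones did not follow HERPUD1 in SUDHL16. HSPA5 was at 183.8, 184.9 and 177.2 CPM in parental libraries and at 133.2, 107.5 and 72.4 CPM in resistant ones. Every resistant library was below every parental one, but the resistant libraries were far apart, and the log2 fold change of −0.80 (SE 0.276) did not pass (edgeR adjusted p = 0.154, and 0.126 without CE-26). It did pass with DESeq2 (−0.82, adjusted p = 0.0450), voom and the fit of all 12 libraries. DNAJB11, which works with BiP, had the same form, at 76.7, 92.6 and 68.0 CPM against 40.7, 45.1 and 51.9 CPM (log2 fold change −0.78, SE 0.225, edgeR adjusted p = 0.0938, and −0.65 without CE-26), and passed under those 3 alternatives too. HSP90B1, which fell in SUDHL6, was at 71.4, 90.9 and 58.5 CPM in parental and at 106.2, 80.4 and 122.8 CPM in resistant libraries, overlapping through CE-26, with a log2 fold change of 0.49 (SE 0.266, edgeR adjusted p = 0.368). Without CE-26 it was 0.68 and the groups did not overlap (edgeR adjusted p = 0.143). Of the 9 chaperones 3 were above 0 and 6 below (median −0.26, and −0.12 without CE-26), and none was called.

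Of the disulfide enzymes in SUDHL16, 5 of 6 were below 0 (4 of 6 without CE-26) and none was called. PDIA3, the isomerase that works with calnexin and calreticulin, was the furthest, at 282.7, 273.8 and 279.8 CPM in parental libraries and at 187.6, 151.9 and 191.7 CPM in resistant ones (log2 fold change −0.65, SE 0.238, edgeR adjusted p = 0.174, and −0.66 without CE-26). Its groups did not overlap, and DESeq2 called it (adjusted p = 0.0207). Its 86 neighbours had a median of −0.55, with 75 of them below 0, and the 76 neighbours of P4HB (−0.38) had a median of −0.75 (−0.46 and −0.45 without CE-26), so these changes cannot be told apart from those of their regions.

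The 3 sensors overlapped between the SUDHL16 groups. ERN1 was at 7.72, 18.6 and 8.32 CPM in parental and at 5.63, 6.12 and 15.2 CPM in resistant libraries (log2 fold change −0.33, SE 0.540, and 0.18 without CE-26). ATF6 was at 87.2, 46.8 and 72.7 CPM and at 59.3, 89.7 and 73.3 CPM (0.10, and −0.10 without CE-26). ATF6B was at 127.5, 90.2 and 124.1 CPM and at 130.3, 119.0 and 96.3 CPM (0.01, and −0.12 without CE-26). No direction can be given for any of them in this line, with standard errors from 0.247 to 0.540.

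Entry and exit genes of SUDHL16 were also without a call. SSR3, the gamma subunit of TRAP, shows how far CE-26 can decide a value. It was at 170.4 and 166.5 CPM in CE-25 and CE-27, at 588.6 CPM in CE-26, and at 140.0, 158.1 and 101.6 CPM in the resistant libraries, so that its log2 fold change was −1.21 (edgeR adjusted p = 0.242) and −0.33 without CE-26. SEC61G turned from −0.61 to 0.15 in the same way. SSR4 was at 44.1, 65.1 and 57.4 CPM in parental and at 45.2, 47.3 and 49.1 CPM in resistant libraries (log2 fold change −0.23, edgeR adjusted p = 0.654, and −0.09 without CE-26). SEC61B (−0.53, and −0.36 without CE-26) was lower in every resistant library than in every parental one without passing. The transport genes lay between −0.10 (SEC31A) and 0.41 (KDELR1), all with overlapping groups (−0.20 and 0.36 for these genes without CE-26). Over the 40 genes, every resistant library was below every parental one for 6 genes (15.0%, background 11.9%) and above for 3 (7.50%, background 14.6%), and 31 overlapped. Without CE-26 it was below for 8 of the 40 (background 19.8%) and above for 6 of the 40 (background 22.4%), and 26 overlapped.

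**Figure D3:**
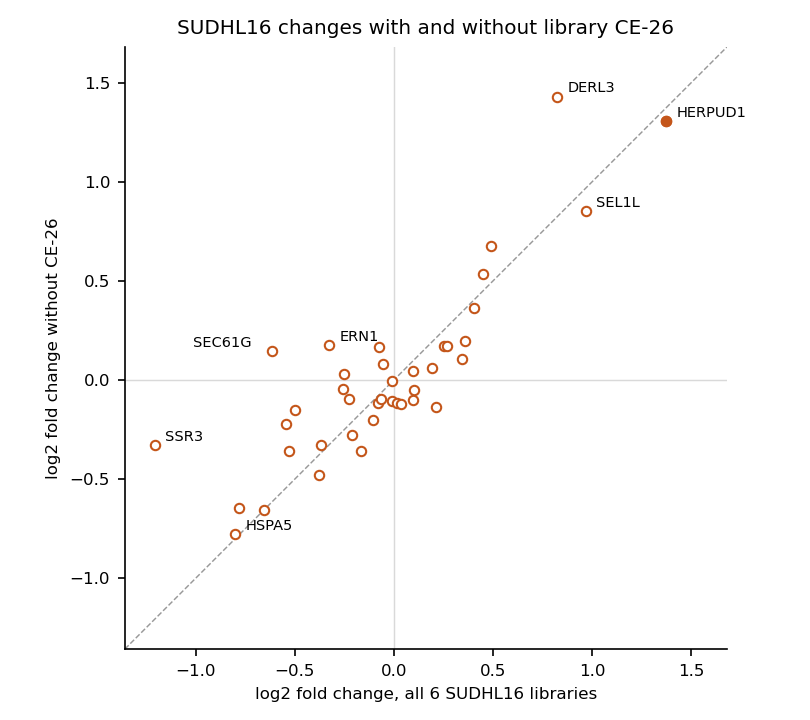
Log2 fold change of each of the 40 genes in SUDHL16 from all 6 libraries (x axis) and without CE-26 (y axis), with the dashed line marking equal values and HERPUD1, the called gene, filled. SSR3 moves from −1.21 to −0.33 and DERL3 from 0.82 to 1.43, while HERPUD1 and HSPA5 stay close to the line.

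The difference between the lines was tested itself, as the interaction of line and status in a fit of all 12 libraries. Of the 40 genes 4 were called (10.0%), against 7.16% of the 19621 genes tested, and for all 4 the signed log2 fold change was higher in SUDHL16, for which the background was 4.34%. For HSP90B1 the SUDHL16 log2 fold change minus that of SUDHL6 was 1.53 (SE 0.246, edgeR adjusted p = 0.00272), and for HERPUD1 it was 1.69 (SE 0.293, edgeR adjusted p = 0.00425). Both were called in each of the 17 alternative fits. For SSR4 it was 0.77 (SE 0.185, edgeR adjusted p = 0.0271) and for DERL3 1.81 (SE 0.495, edgeR adjusted p = 0.0499). These latter calls were less firm, since neither passed without any 1 of the 6 SUDHL6 libraries, at adjusted p of 0.0719 to 0.0916 for SSR4 and 0.104 to 0.135 for DERL3. SSR4 was also not called without CE-25 (0.69, edgeR adjusted p = 0.0505), without a filter (0.116) or with upper-quartile scaling, and DERL3 not with that scaling (0.121 for each). DERL3 was also not called without CE-25, CE-27, CE-28 or CE-29, at 0.0735 to 0.0840. Without CE-26, 6 of the 40 were called, while calls over all genes also rose, to 2805 of the 20959 tested. The added genes were PDIA3 (−0.68) and SEC61B (−0.59), whose signed log2 fold change was lower in SUDHL16. HSP90B1, HERPUD1, SSR4 and DERL3 were then at 1.62, 1.56, 0.81 and 2.24. For the sensors the difference was 0.25 (ERN1), 0.19 (ATF6) and −0.09 (ATF6B), with adjusted p of 0.827 to 0.924, and 0.63, −0.06 and −0.28 without CE-26. Kit and instrument differ between the lines and cannot be told apart from them, although each change was measured within a line. By direction alone, 17 genes were lower in both lines, 4 were higher in both, 13 were lower in SUDHL6 and higher in SUDHL16, and 6 the reverse. Without CE-26 these counts were 19, 6, 11 and 4.

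**Figure D4:**
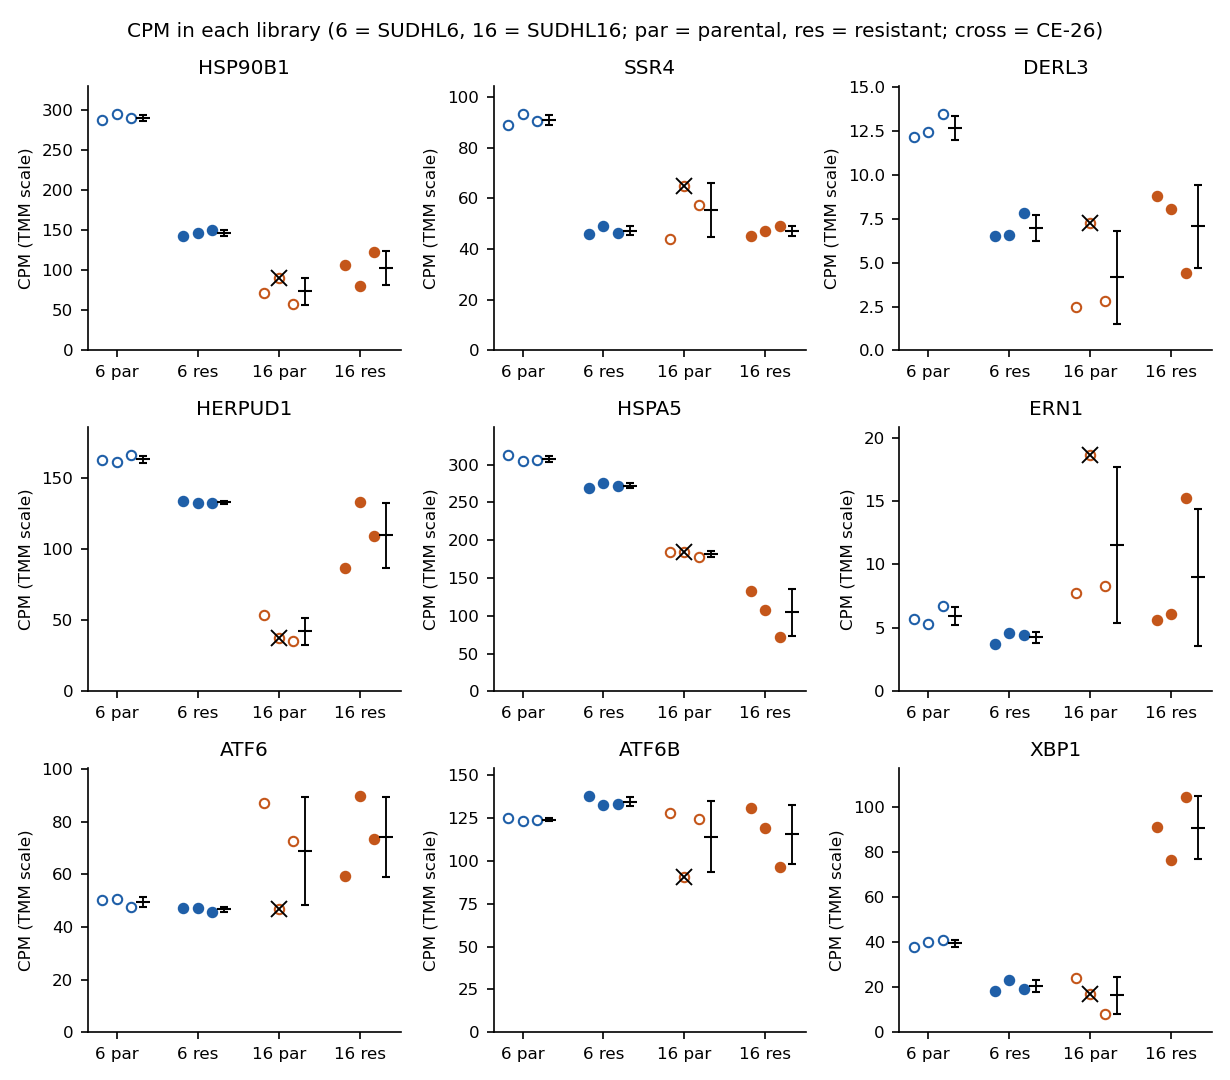
CPM in each library (y axis, from 0) of the called genes, HSPA5, the 3 sensors and XBP1 in the 4 groups, with parental libraries open, resistant ones filled, CE-26 crossed, and the mean with SD (n = 3) as the black mark. HSP90B1, SSR4, DERL3 and XBP1 step down from parental to resistant cells in SUDHL6, and HERPUD1 and XBP1 step up in SUDHL16, where the 3 sensors overlap between groups.

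Another 79 genes of the pathway that are not among the 40 were counted in the same way. In SUDHL6, 78 were tested, 0 were raised and 4 were lowered (5.13%, background 4.65%), and in SUDHL16, 76 were tested, 2 were raised and 2 were lowered (2.63% each, background 3.20% and 2.10%). Without CE-26, 6 were raised and 3 lowered (7.89% and 3.95%, background 6.73% and 3.32%). Apart from the 0 raised in SUDHL6, where the background was 4.31%, these shares lie close to the background. At an adjusted p under 0.05 and any fold, 34.6% of the 78 were lower in SUDHL6 and 20.5% higher, against 19.7% and 17.7% of all genes tested. Genes of a like level were not counted beside them.

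XBP1 was called in both lines, in opposite directions. It is the target of IRE1 and the transcription factor that raises many ER genes. In SUDHL6 it was at 38.0, 40.04 and 41.0 CPM in parental libraries and at 18.5, 23.4 and 19.4 CPM in resistant ones, a log2 fold change of −0.96 (SE 0.0773, edgeR adjusted p = 8.37e-07). In SUDHL16 it was at 24.2, 16.9 and 8.13 CPM in parental and at 91.2, 76.7 and 104.6 CPM in resistant libraries, a 5.54-fold rise (log2 fold change 2.47, SE 0.393, edgeR adjusted p = 0.0102). The groups overlapped in neither line. The call in SUDHL16 was lost without CE-28 (adjusted p = 0.0522) or CE-30 (0.0612) and kept without CE-26 (2.50, edgeR adjusted p = 0.00987). Its change differed between SUDHL16 and SUDHL6 by 3.45 (SE 0.442, edgeR adjusted p = 0.000629). So HERPUD1 and XBP1 were both called raised in SUDHL16. HSPA5, DNAJB11 and PDIA3 had resistant libraries that all lay below the parental ones, but none of them was called. Such a separation held for 15.0% of the members and for 11.9% of all genes tested. Of the 9 chaperones, HSP90B1 (0.49), HYOU1 (0.34) and CANX (0.19) leaned up without passing and 6 lay below 0. The change of PDIA3 could not be told apart from that of its region. Of the 6 plasma cell markers, XBP1 itself is 1, and the other 5 did not move together. They summed to 829 to 841 CPM in SUDHL6 parental and 658 to 678 CPM in SUDHL6 resistant libraries, where IRF4 fell (−0.92, edgeR adjusted p = 7.91e-12), TNFRSF17 was higher (0.24, edgeR adjusted p = 0.000118) and CD38 was at −0.01. In SUDHL16 the 5 summed to 11.6 to 35.5 CPM in parental and 13.9 to 23.8 CPM in resistant libraries, which overlap. There PRDM1 rose, from 0 to 0.689 CPM up to 9.38 to 12.7 CPM, and CD38 fell (−3.92, edgeR adjusted p = 0.00417). IRF4 was at 0, 3.10 and 0.124 CPM in parental and at 2.68, 9.51 and 9.02 CPM in resistant libraries. It was called raised without CE-26 (edgeR adjusted p = 0.00536) and not with all libraries. TNFRSF17, at 0 in parental and 0.603 to 1.02 CPM in resistant libraries, was also called raised without CE-26 (edgeR adjusted p = 0.0413). SDC1 was at 0 in the resistant libraries, CE-25 and CE-27, and at 2.41 CPM in CE-26. The part of these markers in the ER results was not tested.

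The other lowered genes of the pathway in SUDHL6 were EIF2AK3, DNAJC3 and TXNDC5. EIF2AK3 encodes PERK, the sensor that slows translation, and fell from 80.6, 82.7 and 80.6 CPM to 48.5, 52.4 and 51.3 CPM (log2 fold change −0.68, SE 0.0333, edgeR adjusted p = 9.59e-09). In SUDHL16 it was at −0.45 and did not pass (edgeR adjusted p = 0.383, and −0.52 without CE-26). DNAJC3, an inhibitor of PERK and co-chaperone of BiP, fell from 85.0, 85.0 and 81.9 CPM to 50.8, 49.9 and 51.0 CPM (−0.73, SE 0.0288, edgeR adjusted p = 1.35e-09). Its 19 neighbours on chromosome 13 had a median of −0.71 and 18 were below 0, whereas the 35 neighbours of EIF2AK3 had a median of −0.03. TXNDC5, a disulfide isomerase, fell from 301.5, 309.4 and 285.4 CPM to 194.0, 199.3 and 203.9 CPM (−0.59, SE 0.0299, edgeR adjusted p = 1.34e-08), just past the fold limit. Thus transcripts of both PERK and IRE1 were lower in SUDHL6 resistant cells at an adjusted p under 0.05, the first past the fold limit and the second not, and ATF6B was slightly higher.

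The other genes of the pathway that were called in SUDHL16 were UGGT2, SEC11A and NPLOC4, the last chosen after its values were seen. UGGT2, a glucosyltransferase that marks unfolded glycoproteins for another round of calnexin binding, was at 95.1, 98.5 and 88.3 CPM in parental libraries and at 21.97, 14.0 and 9.27 CPM in resistant ones. It fell by 2.64 on the log2 scale (SE 0.332, edgeR adjusted p = 0.00366), far beyond the spread and beyond its 17 neighbours (median 0.11), and it was called in each of the 13 alternative fits (−2.59 without CE-26). SEC11A, the catalytic subunit of signal peptidase, was at 16.6, 21.4 and 14.2 CPM in parental and at 38.7, 33.3 and 45.6 CPM in resistant libraries (1.19, SE 0.263, edgeR adjusted p = 0.0378, and 1.36 without CE-26), and its 42 neighbours had a median of 0.91. NPLOC4, a cofactor of the VCP segregase, was at 143.4, 133.3 and 169.3 CPM and at 70.9, 83.1 and 61.2 CPM (−1.05, SE 0.235, edgeR adjusted p = 0.0397, and −1.11 without CE-26), and its 80 neighbours had a median of −0.68. Both SEC11A and NPLOC4 lost their call without CE-25, CE-27, CE-28, CE-29 or CE-30, at adjusted p of 0.0990 to 0.175.

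Compared per length of exon, CALR had the highest level of the 40 in each group, at 183 CPM per kb in SUDHL6 parental, 167 in SUDHL6 resistant, 126 in SUDHL16 parental and 119 CPM per kb in SUDHL16 resistant cells. ERN1 was the lowest in 3 of the 4 groups (0.222 to 0.603 CPM per kb) and ERO1B the lowest in SUDHL6 parental cells (0.223 CPM per kb). SSR3 was the second gene of SUDHL16 parental cells, at 59.6 CPM per kb with CE-26 included. That place rests in part on CE-26, where SSR3 was at 588.6 CPM against 170.4 in CE-25 and 166.5 in CE-27. The length was that of all annotated exons of a gene, and ranks by the canonical transcript were not made.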

How the data were processed

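RNA-sequencing of 12 libraries was re-analysed. The authors trimmed the reads with Trim Galore, aligned them to GRCh38 with HISAT2 and used StringTie and edgeR, and deposited whole-number counts per Ensembl gene, without normalization. The counting tool, its annotation and its use of strand are not given in the sources used here, so reads of overlapping genes or of the 11 pseudogenes named after 6 members (at most 10.3% of the CPM of the member) could be shared. Of the 60675 identifiers, 56558 were found in GENCODE 44, which gave symbols and positions. The 40 members and all lists were chosen with earlier results of these data known.

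Groups followed the labels, which give no replicate numbers. Each line was fitted alone with edgeR 4.0.16 (filterByExpr, TMM, two-sided quasi-likelihood test, Benjamini-Hochberg adjustment over all genes tested). Standard errors were derived from the F statistic. Values per library were printed for called members, sensors and HSPA5, and for pathway genes called in both lines, XBP1, EIF2AK3 and the 3 with the smallest adjusted p in each line. Values of SEL1L, DNAJB11, PDIA3, SSR3, NPLOC4, MBTPS2 and DDIT3 were added after the data were seen, as was the ERSE-II search. Alternatives were DESeq2 1.42.0, upper-quartile scaling, library totals, no filter, protein-coding genes only, limma 3.58.1 voom with quality weights, a fit of all 12 libraries and each library left out. Tests were checked on simulated counts. Libraries of a group were never identical (mean chi-square per gene between them 2.68 to 3.23 in SUDHL6 and 13.7 to 162 in SUDHL16).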

Additional observations from a re-analysis of the deposited data

Results flagged for a closer look

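For 4 of the 40 genes the change with resistance differed between the lines by the interaction test of edgeR, and each had the higher signed log2 fold change in SUDHL16. The difference was 1.53 for HSP90B1 (−0.99 in SUDHL6 and 0.49 in SUDHL16), 1.69 for HERPUD1 (−0.29 and 1.37), 0.77 for SSR4 (−0.95 and −0.23) and 1.81 for DERL3 (−0.86 and 0.82). The SUDHL6 change passed the limits for HSP90B1, SSR4 and DERL3 and the SUDHL16 change for HERPUD1. With 3 libraries per group, single libraries were not tested as outliers.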

How the results depend on the processing

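In SUDHL6, 3 members were called under each alternative except the fit of all 12 libraries, which called 2 and lost DERL3 (adjusted p = 0.660), and 26 passed at any fold, a limit added after seeing the data. The median log2 fold change of −0.10 was −0.083 with upper-quartile scaling and −0.11 to −0.09 with a library left out. In SUDHL16, where 1 member of 40 was called, DESeq2 called 5, voom with quality weights 6 and the fit of all 12 libraries 5. Calls over all genes rose too, from 833 of 15708 tested to 1775 and 2648 of 15708 and to 2855 of 19621. With a library left out, 0 to 1 members were called. The median of −0.06 was 0.10 with library totals and 0.073 without a filter, so its sign was not settled, and −0.10 to 0.02 with a library left out. Scaling moved the median of all SUDHL16 genes, from −0.02 to −0.11 with upper quartiles and to 0.11 with library totals. For the difference between the lines, 4 members were called, 8 with DESeq2, 7 with voom, and 2 to 6 with a library left out. Of all genes called for that difference, 60.7% had the higher signed log2 fold change in SUDHL16 and with DESeq2 48.9%, with upper quartiles 51.8%. Over all genes tested, 1493 were called in SUDHL6 and 140 in the fit of all 12 libraries. In SUDHL16, 833 were called, against 1775 with DESeq2, 2648 with voom, 2855 in the fit of all 12 libraries, 1636 without CE-26 and 279 to 460 without any other library. For the difference, 1404 of the 19621 genes tested were called, against 2795 with DESeq2 and 2720 with voom of the same 19621. It was 841 of 46002 without a filter, 2805 of 20959 without CE-26 and 830 to 863 without a SUDHL6 library.

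Of the values of single genes under the alternatives, 577 kept their direction and side of the limits, 52 lost a call, 24 gained a call and 19 changed sign. The sign changes were of values near 0 or of ERN1. In SUDHL16, ATF6 (0.10) was −0.069 with voom, and ATF6B (0.01) was −0.0070 with DESeq2, −0.075 with upper quartiles, −0.038 with protein-coding genes only and −0.074 with voom. With a library left out, ERN1 ranged from −0.93 to 0.18, ATF6 from −0.10 to 0.31 and ATF6B from −0.12 to 0.13. SEL1L in SUDHL6 (−0.01) was 0.0024 with upper quartiles. For the difference between the lines, ATF6 (0.19) was −0.0067 with voom and ATF6B (−0.09) was 0.014 without a filter, and with a library left out ERN1 ranged from −0.35 to 0.63, ATF6 from −0.056 to 0.47 and ATF6B from −0.28 to 0.067. The cause was not tested. TXNDC5 in SUDHL6 lost its call in 9 of 13 fits, by a fold just under the limit in 8 of them. In the fit of all 12 libraries, which share a larger spread, XBP1, EIF2AK3 and DNAJC3 lost theirs in SUDHL6 (adjusted p = 0.363, 0.231 and 0.388). No paired analysis was possible because the labels carry no replicate numbers.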

Other observations

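Grouped by function, the 11 other genes of stress signalling had a higher median than the remaining pathway genes in SUDHL16. Of the 9 tested, 8 were above 0, and their median was 0.89 (0.81 and 7 of 9 without CE-26), while EIF2AK3 was below 0, and in SUDHL6 the 10 tested had a median of −0.18 with 7 below 0. The other groups in SUDHL16 had medians from 0.04 to 0.18 (folding, degradation, translocation and transport). XBP1 was the 1 called gene of the 9, and DDIT3 was the next furthest. DDIT3 was at 1.79 (edgeR adjusted p = 0.0995) and, without CE-26, at 1.46 (edgeR adjusted p = 0.0822), and was not called. MBTPS2, a protease that releases ATF6, was called without CE-26 (0.81, edgeR adjusted p = 0.0490) and not with all libraries. Its neighbours were also raised (median 0.64 with all libraries).

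Members with and without either element in their promoter had similar medians. The 10 with an element had a median log2 fold change of −0.11 in SUDHL6 with 9 below 0, and the 24 others with a promoter had −0.11 with 18 below 0. In SUDHL16 the medians were −0.08 and −0.06, and without CE-26 −0.03 and −0.10. These are descriptions without a test.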
